A study of Arabidopsis thaliana with 8 samples.

Results

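The leaf transcriptome of dTLec1-1, an insertion line of Arabidopsis thaliana called dTLec here, was compared with that of the wild type in control leaves, the baseline of a systemic wounding experiment. The comparison rests on the 2 arrays titled dTLec control and the 2 titled wild-type control, 4 of the 8 arrays in the study, and on all 22746 probe sets other than the array's own controls. Both genotypes are of the Col-0 ecotype, and dTLec1-1 carries a T-DNA insertion from the SALK collection. The plants were 5 weeks old and had grown at 21 °C with 10 h of light and 14 h of darkness, after 2 days in the dark at 4 °C. In the experiment, tweezers were clamped across the midvein of some of the rosette leaves, and 2 h later RNA was extracted from control leaves and also from systemic leaves, which are the undamaged leaves of a wounded plant. The 4 groups were dTLec control, wild-type control, dTLec systemic and wild-type systemic leaves, with 2 arrays each. All 4 share the ecotype and the harvest time. The labels leave unsaid whether control leaves came from undamaged plants and whether replicates were separate plants, so p-values reflect only how far these samples lay apart, and that spread may be technical. The mutant was represented by 1 insertion line, and no label names the gene at the insertion, so no transcript was checked for it. An effect of the insertion and other differences between the line and the wild type cannot be told apart here.

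As background, SALK lines carry a bacterial T-DNA inserted in the genome, which can interrupt a gene or alter its expression. Wounding a leaf sets off electrical, calcium and jasmonate signals that travel along the veins and induce defence genes in distant leaves. A mutant can differ from the wild type in that response, in the resting leaf, or in both, and control leaves are the baseline for both. All 4 control arrays had high levels of the mesophyll genes measured by name. LHCB4.1 and LHCB4.2, which encode chlorophyll-binding antenna proteins, RCA, which encodes the activase of Rubisco, and PRK, a Calvin cycle enzyme, lay between 12.47 and 14.01 on the log2 scale, and their median genotype difference was 0.02.

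No probe set passed an adjusted p of 0.05 (0.0% of 22746; limma with Benjamini-Hochberg adjustment), and the smallest adjusted p was 0.164. An unadjusted p under 0.05 was reached by 2104 probe sets (9.25%), of which 998 were higher in dTLec (4.39%) and 1106 lower (4.86%). The deposited values had the difference between replicate numbers removed before deposit, which makes these p-values too small. Adding the replicate number to the model as a block takes that into account. Under it 1144 probe sets had an unadjusted p under 0.05 (5.03%), close to the share that p-values spread evenly would give, and the smallest adjusted p was 0.382. A fit on the 4 control arrays alone also called 0 probe sets, with 1588 at an unadjusted p under 0.05 (6.98%).

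**Figure D1:**
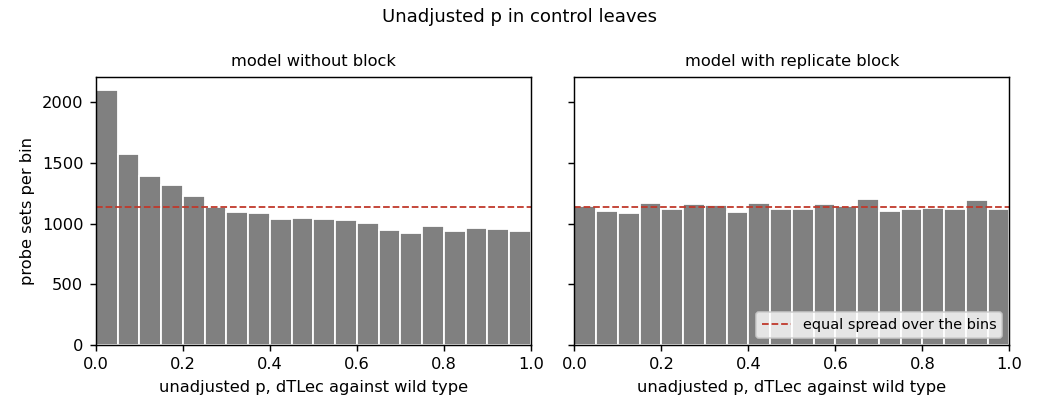
Unadjusted p-values of the dTLec against wild-type comparison in control leaves, as the number of probe sets in each bin of 0.05, for the model without and with the replicate block. The first bin held 2104 probe sets without the block and 1144 with it, where the counts of all bins are nearly level.

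The median absolute difference between the dTLec and wild-type means was 0.0912 on the log2 scale. Single replicate arrays, which vary more than means of 2, differed by a median of 0.109 in dTLec control leaves and 0.122 in wild-type control leaves. The wild-type control arrays were the less alike pair, with 139 probe sets at least 2-fold apart, and the dTLec control arrays had 20 such probe sets. An unadjusted p under 0.05 was reached by 1915 probe sets without wild-type control replicate 1, and by 1130 (4.97%) without dTLec control replicate 2. Over all probe sets, none of them an independent replicate, the correlation was 0.9955 between the dTLec control arrays, 0.9955 between dTLec control replicate 1 and wild-type control replicate 2, and 0.9919 between the wild-type control arrays. The arrays of the genotypes did not overlap at 8631 probe sets (37.9%), 4700 higher in dTLec (20.7%) and 3931 lower (17.3%). The genotype difference exceeded both replicate gaps at 6024 probe sets. In systemic leaves the same fit called 1257 probe sets (5.53%), 513 higher in dTLec (2.26%) and 744 lower (3.27%). The block reduced that number to 213. It was 3 without wild-type systemic replicate 2, 46 without dTLec systemic replicate 1, 73 without wild-type systemic replicate 1, 230 without dTLec systemic replicate 2 and 713 without either dTLec control array.

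Only 26 probe sets (0.114%) differed by at least 2-fold in control leaves, 9 higher in dTLec (0.0396%) and 17 lower (0.0747%). Of these, 8 match 1 named gene, and 18 match none in the annotation used here. At all 26 the arrays of the genotypes did not overlap, against 37.9% of all probe sets. At 23 the difference was larger than both replicate gaps, against 6024 of all 22746. The 26 were chosen for a large difference in these same arrays, which favours both counts. In systemic leaves 235 probe sets differed by at least 2-fold. Of the 26, 21 had the same sign in systemic leaves, against 60.4% of all probe sets, and 11 were again at least 2-fold apart with that sign. There 9 passed the test, all with the same sign, against 979 of all 22746 probe sets. With the replicate block 5 of the 26 passed, all with the same sign, against 176 of all 22746 probe sets. The count rose to 11 without the dimmest 25% of probe sets, and also rose without either wild-type control array. The 9 became 0 without wild-type systemic replicate 2, 3 without dTLec systemic replicate 1 and 4 without wild-type systemic replicate 1.

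The lowest probe sets in dTLec, 264213_at and 264153_at, have no gene name in the annotation. 264213_at read 4.85 and 4.55 in dTLec control leaves, against 7.31 and 8.35 in wild-type control leaves. 264153_at read 5.29 and 4.87 in dTLec control leaves, against 7.41 and 8.46 in wild-type control leaves. In dTLec the first lay near the lower quartile of all probe sets on those arrays, 4.66 and 4.69, and both were more than 2 log2 units brighter in every wild-type array. The difference was -3.13 ± 0.33 for 264213_at, 8.74-fold lower in dTLec, and -2.85 ± 0.33 for 264153_at, 7.23-fold lower (SE, n = 2 arrays per group). Neither passed without the block (limma, adjusted p = 0.164 and 0.169) or with the replicate block (0.382 for each). Without wild-type control replicate 1, both passed (adjusted p = 0.0105), and they were the only probe sets to do so when any 1 array was left out. They held the lowest and second lowest places of all 22746 probe sets in control and in systemic leaves. In systemic leaves 264213_at read 4.87 and 4.32 in dTLec, against 9.89 and 9.70 in the wild type, and 264153_at read 5.33 and 4.82 in dTLec, against 9.81 and 9.68 in the wild type. The systemic differences of -5.20 and -4.67 passed the test (limma, adjusted p = 0.00448 and 0.00531), also with the block (0.00738 and 0.00827), but not without wild-type systemic replicate 2 (0.0541 and 0.0543). Whether these probe sets measure the interrupted gene was not tested.

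**Figure D2:**
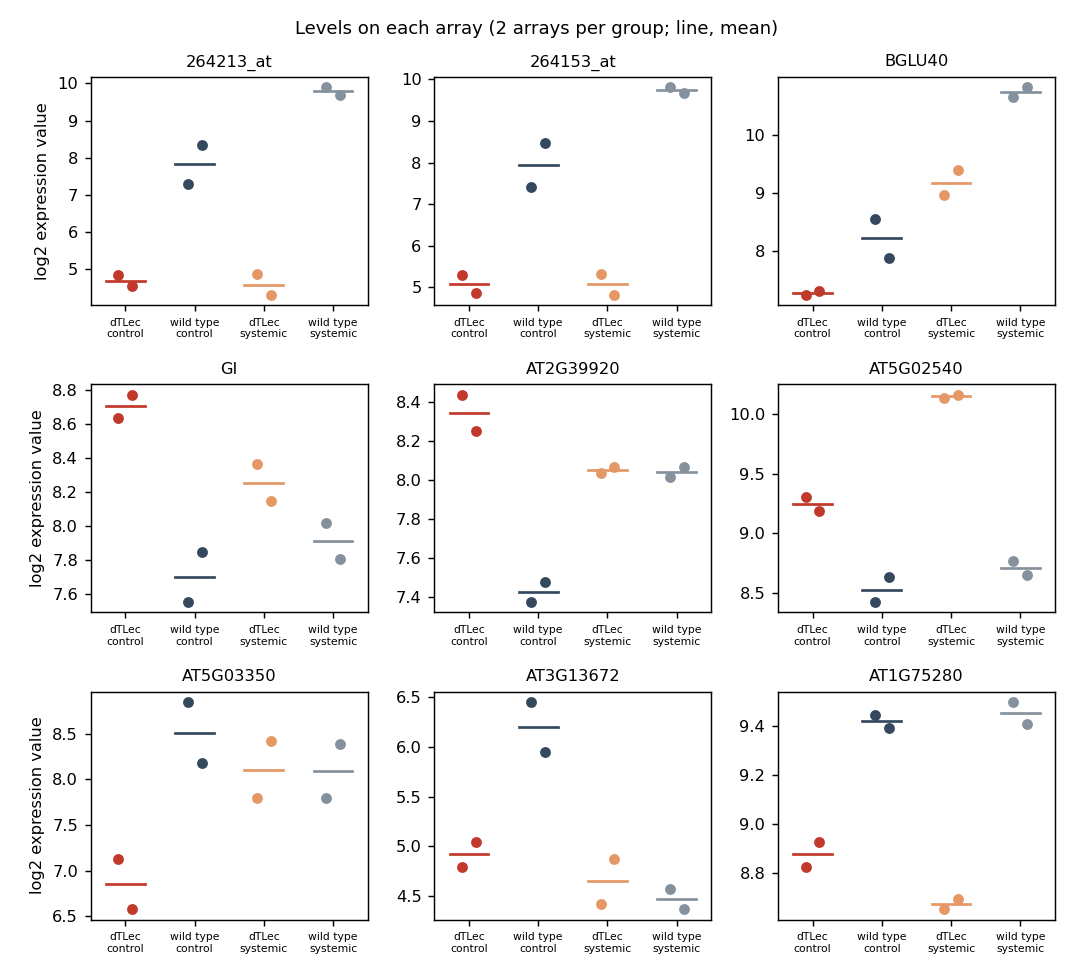
Deposited log2 values of selected probe sets in each of the 8 arrays, with points for arrays and a line for each group mean; groups run from dTLec control and wild-type control to dTLec systemic and wild-type systemic leaves. The dTLec control arrays of 264213_at lie at 4.85 and 4.55, below the wild-type control arrays at 7.31 and 8.35, and those of GI at 8.64 and 8.77 lie above 7.55 and 7.85.

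Among named genes, 34 were taken by the size or the p of their difference, 16 higher and 18 lower in dTLec. Since they were chosen for that difference, their control-leaf values are a description. None passed, with adjusted p between 0.164 and 0.504, and between 0.382 and 0.979 with the replicate block. All 34 kept their sign when any array was left out. Their choice from genes without overlap between the control groups fixed that in advance.

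The higher genes included GI, which encodes GIGANTEA, a circadian clock protein that also promotes flowering in long days. GI read 8.64 and 8.77 in dTLec control leaves, against 7.55 and 7.85 in wild-type control leaves. The groups were well apart and both wild-type arrays lay below both dTLec arrays. The difference was 1.00 ± 0.13, or 2.01-fold (adjusted p = 0.173, and 0.439 with the block). TIC, the other clock gene measured by name, which encodes a regulator of clock gene expression, read 8.85 and 8.91 in dTLec, against 8.59 and 8.75 in the wild type, a difference of 0.21 ± 0.09. In systemic leaves the GI difference was 0.34 (adjusted p = 0.186), with 8.36 and 8.14 in dTLec, against 8.02 and 7.81 in the wild type.

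AT2G39920, which encodes a phosphatase-like protein of the HAD superfamily, had the smallest p of the higher named genes. It read 8.43 and 8.25 in dTLec control leaves, against 7.37 and 7.48 in wild-type control leaves, a difference of 0.92 ± 0.09 (adjusted p = 0.164, and 0.382 with the block). In systemic leaves the genotypes read alike, at 8.03 and 8.06 in dTLec, against 8.01 and 8.07 in the wild type. AT1G56300, which encodes a DnaJ-type chaperone, had the largest difference of the higher named genes, 1.19 ± 0.23, with 9.08 and 9.39 in dTLec, against 8.40 and 7.70 in the wild type. AT4G16146 read 6.14 and 6.40 in dTLec, against 5.49 and 4.88 in the wild type (1.08 ± 0.21). AT3G16670 was less even, with 10.78 and 9.52 in dTLec, against 8.87 and 9.25 in the wild type (1.09 ± 0.39), so that its dTLec arrays were further apart than the genotype means. MGL, which encodes methionine gamma-lyase, read 7.85 and 7.18 in dTLec, against 6.92 and 6.36 in the wild type (0.88 ± 0.35).

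The other higher genes differed by 0.38 to 0.77. AT5G02540, which encodes a Rossmann-fold dehydrogenase-like protein, read 9.30 and 9.19 in dTLec, against 8.42 and 8.63 in the wild type (0.72 ± 0.10). AT2G21130, which encodes a cyclophilin, a protein-folding isomerase, read 6.79 and 6.96 in dTLec, against 6.20 and 6.03 in the wild type (0.76 ± 0.11). AT4G16870, annotated as a pseudogene, read 7.59 and 7.67 in dTLec, against 6.75 and 6.96 in the wild type (0.77 ± 0.11). In each of the 3 the replicates were close together and the groups were clearly apart. AT2G15880, which encodes a leucine-rich repeat extensin of the cell wall, was higher by 0.60 ± 0.09, AT5G62720 by 0.55 ± 0.08, and AT3G20240, which encodes a mitochondrial substrate carrier, by 0.50 ± 0.08. AT1G62480, AT2G37480, AT1G54200 and AT1G12730 were higher by 0.50, 0.47, 0.39 and 0.38.

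**Figure D3:**
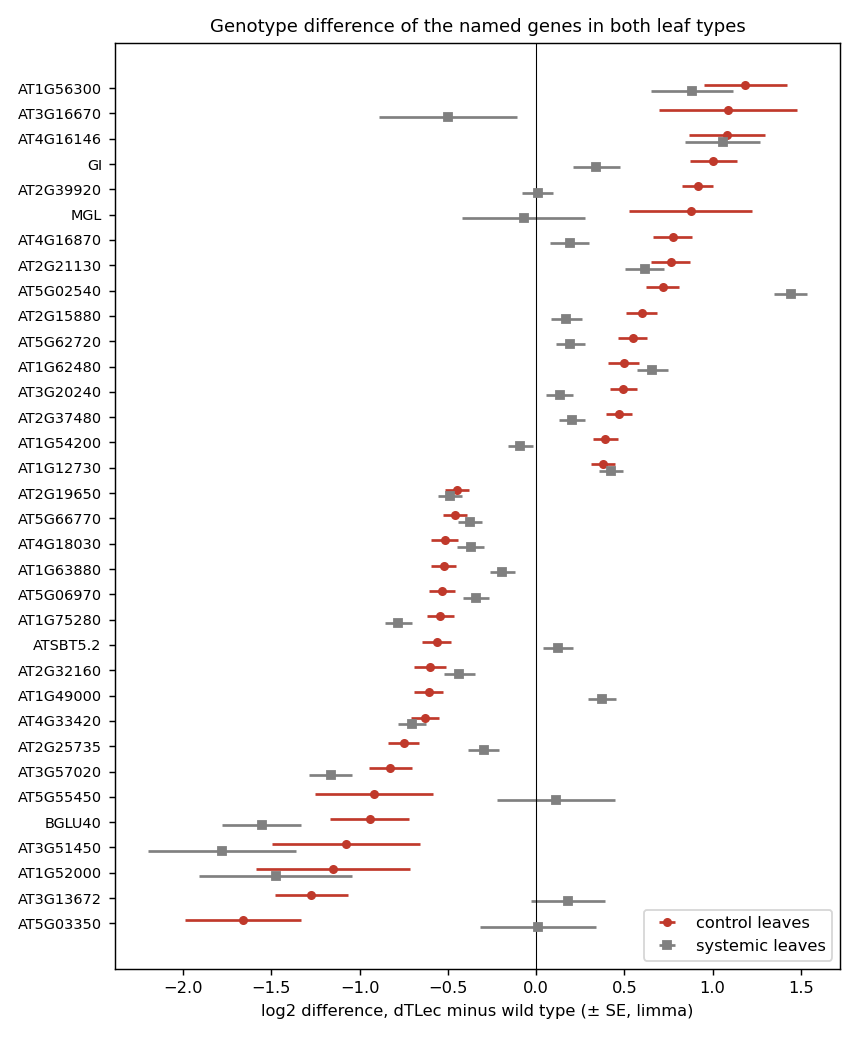
Log2 differences, dTLec minus wild type, of the genes chosen by size or p, with control leaves above systemic leaves for each gene and bars of 1 SE (n = 2 arrays per group). The control-leaf differences run from 1.19 for AT1G56300 to -1.66 for AT5G03350, and several systemic differences, such as that of AT5G03350 at 0.01, lie near 0.

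Of the named genes lower in dTLec, AT5G03350 had the largest difference. It encodes a legume-type lectin, one of the sugar-binding proteins, and read 7.13 and 6.58 in dTLec control leaves, against 8.85 and 8.18 in wild-type control leaves. The groups did not overlap, and the difference was -1.66 ± 0.33, or 3.16-fold lower (adjusted p = 0.242, and 0.65 with the block). In systemic leaves it read 7.79 and 8.42 in dTLec, against 7.79 and 8.39 in the wild type, a difference of 0.01. AT1G52000, which encodes a jacalin-related lectin, read 6.52 and 6.40 in dTLec, against 8.17 and 7.05 in the wild type (-1.15 ± 0.43). Its wild-type replicates were far apart, and its systemic difference was -1.48 (adjusted p = 0.101).

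AT3G13672, also called SINA2, a homologue of the SINA ubiquitin ligases, read 4.80 and 5.05 in dTLec, against 6.45 and 5.95 in the wild type (-1.27 ± 0.21; adjusted p = 0.183). Its systemic values were all between 4.37 and 4.88, close to the dTLec control values. Both lay near the lower quartile of the arrays, where differences are hard to read. AT3G51450 and AT3G57020 encode strictosidine synthase-like proteins. AT3G51450 read 6.08 and 5.93 in dTLec, against 7.68 and 6.48 in the wild type (-1.08 ± 0.42), and AT3G57020 read 6.61 and 6.64 in dTLec, against 7.62 and 7.29 in the wild type (-0.83 ± 0.12). BGLU40, a member of the beta-glucosidase family, read 7.24 and 7.30 in dTLec, against 8.55 and 7.88 in the wild type (-0.94 ± 0.22). In AT3G51450, AT3G57020 and BGLU40 alike, the dTLec replicates were close together and wild-type replicate 1 was the highest of the 4 control arrays. For AT3G51450 the wild-type arrays were further apart than the genotype means.

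AT5G55450, which encodes a lipid transfer protein, barely separated, with 7.41 and 6.54 in dTLec, against 7.45 and 8.33 in the wild type (-0.92 ± 0.34). AT2G25735 read 8.65 and 8.55 in dTLec, against 9.26 and 9.45 in the wild type (-0.75 ± 0.09; adjusted p = 0.169), and had the smallest p of the lower named genes. AT1G49000 read 5.76 and 5.74 in dTLec, against 6.37 and 6.35 in the wild type (-0.61 ± 0.08). The remaining lower genes differed by -0.45 to -0.63. They were AT4G33420, a class III peroxidase (-0.63), the methyltransferase-like AT2G32160 and AT4G18030 (-0.60 and -0.52), the subtilase ATSBT5.2 (-0.56), the isoflavone reductase-like AT1G75280 (-0.54), AT5G06970 (-0.54), the TIR-NBS-LRR immune receptor-like AT1G63880 (-0.52), the GRAS-family AT5G66770 (-0.46) and the C1-domain AT2G19650 (-0.45).

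Systemic leaves give these genes a second difference, from arrays that do not enter the control difference. Both tests share the estimate of the spread over all 8 arrays. Choosing genes or probe sets by a small p in control leaves therefore also favours their systemic tests. Of the 34, 26 had the same sign in systemic leaves, 13 of 16 higher and 13 of 18 lower, against 60.4% of all 22746 probe sets. In systemic leaves AT1G49000 passed the test with the opposite sign. With the same sign 14 of the 34 passed, 5 higher and 9 lower. Of all 22746 probe sets 979 did, and 176 with the replicate block. With the replicate block, 5 passed, and between 0 and 16 passed with that sign when 1 array was left out (0 when wild-type systemic replicate 2 was out, 1 when either its partner or dTLec systemic replicate 1 was out, and 5 when dTLec systemic replicate 2 was out). AT5G02540 passed with the block (adjusted p = 0.00978), at 10.13 and 10.16 in dTLec systemic leaves, against 8.77 and 8.65 in wild-type systemic leaves, a genotype difference of 1.44. The genes lower with the block were AT1G75280 (-0.78), AT3G57020 (-1.16), AT4G33420 (-0.70) and BGLU40 (-1.55). Of the 2104 probe sets at an unadjusted p under 0.05 in control leaves, 1610 (76.5%) had the same sign in systemic leaves. Of the 2104, 355 (16.9%) passed there with that sign, against 979 of all 22746 probe sets. Read the other way, 979 of the 1257 probe sets called in systemic leaves (77.9%) had the same sign in control leaves, and with the block 176 of 213 did (82.6%), but the control differences of the 1257 were small. The 513 higher ones had a median of 0.12 in control leaves, against 0.53 in systemic leaves, and the 744 lower ones a median of -0.13 in control leaves, against -0.62 in systemic leaves.

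**Figure D4:**
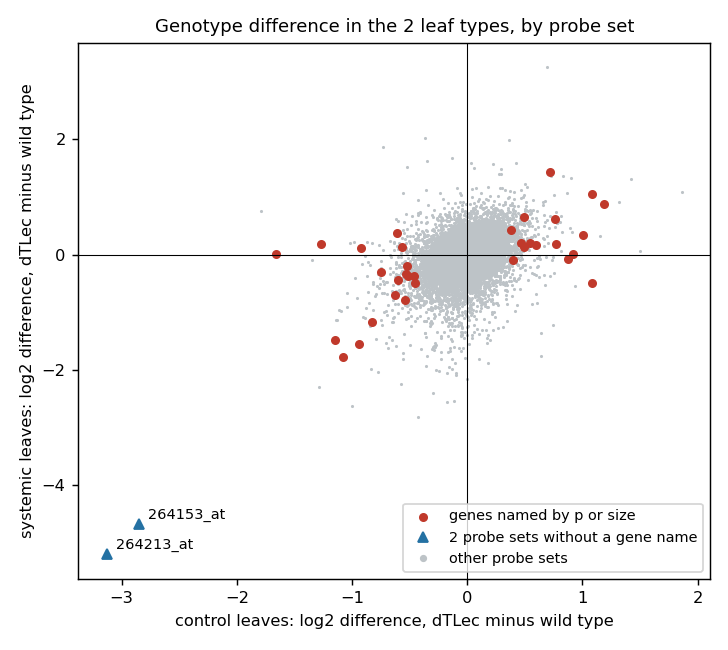
Log2 difference, dTLec minus wild type, in control leaves against that in systemic leaves, with 1 point per probe set and the named genes and 2 unnamed probe sets marked. The cloud is flatter along the control axis, 60.4% of probe sets share their sign, and 264213_at and 264153_at are the lowest on both axes.

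Whether the genotype difference itself differed between leaf types was tested as the interaction. It was called at 1 probe set of 22746 (0.0044%), one without a gene name, and at 0 of the 34 named genes, whose smallest interaction p was 0.0878, at AT1G49000 (limma, adjusted). That gene read 5.87 and 5.76 in dTLec systemic leaves, against 5.37 and 5.52 in wild-type systemic leaves, a genotype difference of 0.37 (adjusted p = 0.0469, and 0.148 with the block). For AT5G03350 and AT2G39920, whose systemic differences were near 0, the interaction p was 0.284 and 0.111, so a difference between leaf types was not shown.

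Pathway lists for leaf metabolism, hormones, defence and stress held 700 genes, of which 78 were measured by name, and 9 of these had an unadjusted p under 0.05 (11.5%, against 9.25% of all probe sets). None passed after adjustment. The arrays of the genotypes did not overlap for 30 of the 78, 21 higher and 9 lower (38.5%, against 37.9% of all probe sets), and their median difference was -0.01, against 0.01 over all probe sets. The lists for clock output, for abscisic acid and for gibberellin and brassinosteroid had no member measured by name.

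Jasmonates are the hormones through which wounding acts. Of the list for their synthesis and turnover, 7 of 30 genes were measured, 2 above 0 and 5 below, with a median of -0.18. JMT, which encodes the methyltransferase that makes methyl jasmonate, read 4.91 and 4.87 in dTLec control leaves, against 6.09 and 5.36 in wild-type control leaves, a difference of -0.83 ± 0.25 (adjusted p = 0.419). The groups did not overlap, but the dTLec control values lay near the lower quartile of those arrays, 4.66 and 4.69. JMT was lower in dTLec systemic leaves too, by -1.98 (limma, adjusted p = 0.0146, and 0.0302 with the block). OPCL1, which activates jasmonate precursors, was close to equal in control leaves (-0.02 ± 0.16). AT5G05600 and AT2G38240, which encode jasmonate-oxidising dioxygenases, differed by -0.69 ± 0.41 and -0.23 ± 0.55, the second with 6.87 and 7.30 in dTLec, against 8.15 and 6.47 in the wild type. Wild-type control replicate 1 lay above replicate 2 at all 7 genes, by a median of 0.73, against 0.03 between the dTLec control replicates. The list's median was 0.20 without wild-type replicate 1 and -0.71 without wild-type replicate 2. The same array was the higher wild-type control at 4 of 4 cold-regulated and dehydrin genes, by a median of 0.81, and their median genotype difference of -0.17 became 0.38 without it and -0.58 without its partner. What part this array has in the differences was not tested.

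The jasmonate-responsive defensins PDF1.2 and PDF1.2b, which encode antifungal peptides, were higher in dTLec control leaves without overlap, as were 20.7% of all probe sets. PDF1.2 read 6.10 and 5.82 in dTLec, against 5.18 and 5.33 in the wild type (0.70 ± 0.46), and PDF1.2b read 6.61 and 6.53 in dTLec, against 5.86 and 6.03 in the wild type (0.62 ± 0.36). Neither passed (adjusted p = 0.691 and 0.651). In systemic leaves both were lower in replicate 1 than in replicate 2 of dTLec, and higher in replicate 1 of the wild type. Whether the probe sets read the 2 genes separately was not tested. Replicates of the defence list were further apart in systemic leaves, which enter these errors, and replicate 1 minus replicate 2 had a median of -0.90 in dTLec and 0.99 in the wild type. The thionin THI2.1 differed by 0.03. Of 3 jasmonate signalling genes, the transcription factor MYC4 was higher by 0.24 ± 0.12 and MYC3 and ORA47 overlapped between genotypes.

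Few stress and immunity genes were measured by name, 3 in each of those lists. In each list 1 had an unadjusted p under 0.05, against 9.25% of all probe sets. WRKY53, a transcription factor of senescence and defence, read 6.64 and 6.08 in dTLec, against 7.15 and 7.21 in the wild type (-0.82 ± 0.19; adjusted p = 0.292). SAG101, a partner of the immune regulator EDS1, read 5.63 and 5.67 in dTLec, against 6.07 and 5.97 in the wild type (-0.37 ± 0.07; adjusted p = 0.247). For both, the dTLec arrays lay below the wild-type arrays. All 6 WRKY genes measured by name were below 0, with a median of -0.12, but 4 of them overlapped between genotypes. Of all probe sets, 17.3% were lower without overlap. The rapid stress list, with WRKY22, WRKY53 and STZ, had a median of -0.36, which was -0.86 without dTLec replicate 1 and 0.08 without dTLec replicate 2.

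GH3.3, an auxin-conjugating enzyme gene, read 7.90 and 7.28 in dTLec, against 6.68 and 7.00 in the wild type (0.75 ± 0.20; adjusted p = 0.361). Of 6 auxin genes measured, 5 were above 0 and 4 of these did not overlap, against 20.7% of all probe sets not overlapping and higher, and the median was 0.12. All 10 alpha-expansin genes measured, whose products loosen cell walls, were above 0, with a median of 0.22, and at 5 of them the groups did not overlap, against 20.7% of all probe sets not overlapping and higher. The median was 0.12 without wild-type control replicate 1. EXPA18, known from root hairs and used here as a root marker, was the only expansin with an unadjusted p under 0.05. It read 4.91 and 4.86 in dTLec, against 4.58 and 4.54 in the wild type (0.32 ± 0.11), near the lower quartile of every array. The brightest expansin, EXPA8, read 10.71 and 11.15 in dTLec, against 10.15 and 10.86 in the wild type, with overlap. The cellulose synthase-like genes, which build other wall polysaccharides, had a median of -0.16 over 8 genes, with 5 below 0. None of the 8 passed after adjustment, and 3 were lower at an unadjusted p under 0.05, against 4.86% of all probe sets. These were CSLA03, a mannan synthase gene (-0.62 ± 0.14; 7.67 and 7.66 in dTLec, against 8.10 and 8.48 in the wild type), CSLC6 (-0.28) and CSLC04 (-0.25).

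Metabolic genes stood near 0 as groups. DPE1, which encodes a plastid enzyme of starch breakdown, read 7.34 and 7.54 in dTLec, against 6.72 and 7.13 in the wild type (0.52 ± 0.18; adjusted p = 0.459), and in systemic leaves it was higher in dTLec than in the wild type by 1.18 (adjusted p = 0.0204, and 0.0499 with the block). The median of the 10 carbon fixation, starch and sugar genes was 0.00, and that of 8 photosynthesis genes was 0.05. BCAT4, which acts in the synthesis of methionine-derived glucosinolates, read 9.02 and 8.86 in dTLec, against 9.73 and 9.22 in the wild type (-0.54 ± 0.21). HCT, an enzyme of lignin precursor synthesis, was higher by 0.25 ± 0.08. Of the 7 lectin-list genes, JAL33, a jacalin-related lectin, had an unadjusted p under 0.05, with a difference of 0.18 near the dim end of the arrays, and the list's median was -0.10.

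**Figure D5:**
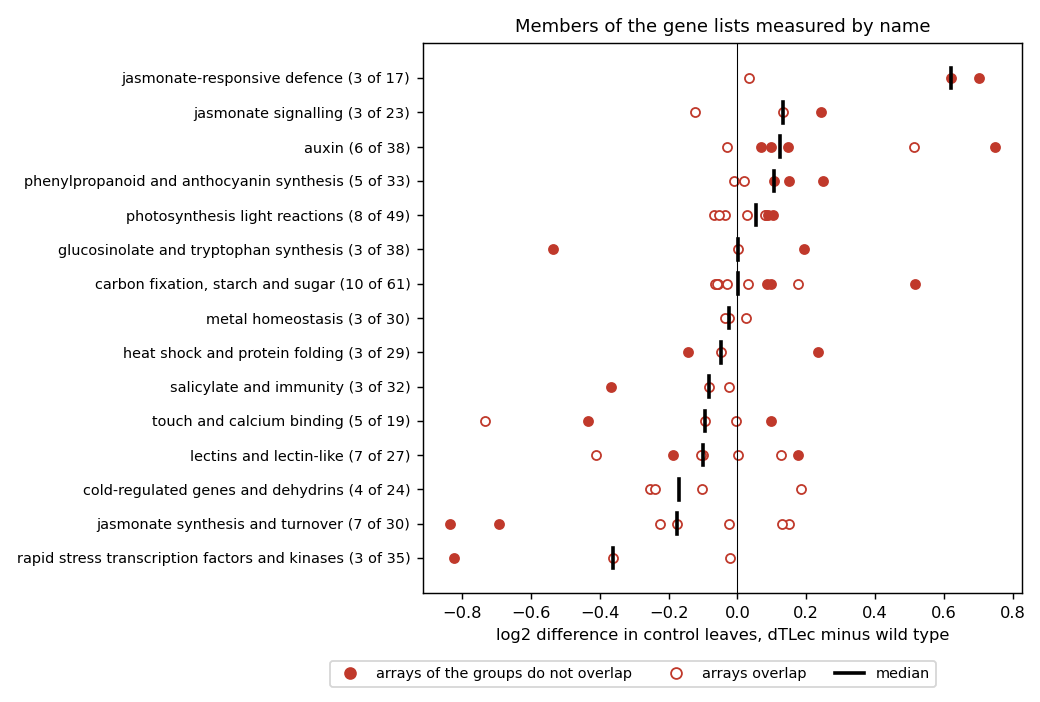
Log2 difference in control leaves, dTLec minus wild type, of the members of each pathway list with at least 3 genes measured by name, with 1 point per gene, filled where the arrays of the genotypes do not overlap, and a line at the list's median. Most points lie close to 0, and the farthest are JMT at -0.83, WRKY53 at -0.82 and GH3.3 at 0.75.

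Gene families taken from shared symbol beginnings held 397 measured genes. Their arrays did not overlap at 31.5%, against 37.9% of all probe sets, and 37 had an unadjusted p under 0.05 (9.32%), near the background. The 47 UDP-glycosyltransferases, which attach sugars to small molecules, had a median of 0.00 and 5 with an unadjusted p under 0.05, led by UGT85A2 (7.86 and 7.72 in dTLec, against 8.28 and 8.30 in the wild type; -0.50 ± 0.09). The 26 cytochrome P450 genes had a median of 0.05 and 3 with an unadjusted p under 0.05, all higher, including CYP71B26 (8.01 and 8.01 in dTLec, against 7.61 and 7.50 in the wild type; 0.45 ± 0.10). In systemic leaves CYP71B26 was lower in dTLec, by -0.60 (adjusted p = 0.0269, and 0.0784 with the block), but the interaction did not pass (adjusted p = 0.111). Of 29 serine carboxypeptidase-like genes, scpl46 and SCPL34 were lowest, at -0.58 ± 0.11 and -0.57 ± 0.17.

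The 69 plastid-encoded genes differed more between replicate arrays than between genotypes. Replicate 1 lay above replicate 2 at 68 of them in dTLec control leaves, by a median of 0.44, and at 3 of them in wild-type control leaves, where the median was -0.33. The genotype difference had a median of 0.06, with 46 above 0, and the groups did not overlap at 10 genes, 9 higher and 1 lower, against 37.9% of all probe sets. That median was -0.12 without wild-type replicate 1, -0.17 without dTLec replicate 1, 0.24 without wild-type replicate 2 and 0.25 without dTLec replicate 2. The lower one was rbcL, which encodes the large subunit of Rubisco, at 8.58 and 8.44 in dTLec, against 9.02 and 9.20 in the wild type (-0.60 ± 0.19; adjusted p = 0.423). The photosystem genes psaJ and psbK were higher by 0.40 ± 0.14 and 0.29 ± 0.08. The part of the replicate arrays in these values was not tested.

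Markers of other cell types were few. Of 90 marker genes, 11 were measured by name, and those for xylem, epidermis, dividing cells, flower and seed were not measured. The guard cell gene FMA (FAMA), the trichome gene TRY and the phloem gene SWEET11 differed by 0.21, 0.21 and 0.17, each with overlapping arrays. The senescence markers SAG29 and WRKY6 differed by 0.15 and -0.15, and the root marker EXPA7 by 0.15. Of the 11 markers, mesophyll genes included, 4 were higher without overlap and 1 lower (45.5%, against 37.9% of all probe sets). With bulk leaf RNA, fewer cells of a type and less RNA per cell cannot be told apart.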

How the data were processed

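RNA from leaves was hybridised to Affymetrix ATH1 arrays, 1 per sample, using 10 µg RNA each, per the labels' protocols. Values were deposited on the log2 scale, 1 per probe set and array, after normalization by the authors. RMA and Partek are the tools named, per the submitters' processing notes; what each did, and in which version, is not given in the sources used here. Such normalization hides any shift common to all transcripts. The number of arrays limits the precision.

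The file holds 22810 probe sets, and the 64 that are array controls were dropped. Genes were named through the platform annotation and the TAIR10.1 gene table: 13513 probe sets had 1 gene, 503 several and 8730 none, and 13436 were found in the table, as 13286 loci. No build is named for the values, so no coordinates are given.

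In limma 3.58.1 under R 4.3.3, lmFit and eBayes were run on all 8 arrays, with 1 mean for each of the groups. The fit has 4 residual degrees of freedom and the prior adds 3.124. All tests are two-sided, and p-values were adjusted by Benjamini-Hochberg across the 22746 probe sets. At all 22746 probe sets the mean of the replicate 1 arrays equalled that of the replicate 2 arrays, within 0.001, so the difference between replicate numbers had been removed. The block fit leaves 3 residual degrees of freedom. The model was tested on simulated arrays with independent noise. No replicate difference was removed from these, so that test does not bear on how far the p-values are too small.

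The members and lists were chosen with earlier results of these data known. Named genes match 1 gene and do not overlap between the control groups. They are the 12 smallest p and the 6 largest differences in each direction, and members of lists and families with an unadjusted p under 0.05. The other list members named, to describe their lists, were chosen after their values were seen. Of unnamed probe sets, 2 that passed in an alternative are given by ID. List members whose symbol matched another gene were left out. Where several probe sets measure a gene, the brightest stands for it. The 14 alternatives were other scalings, an intensity trend, no dim probe sets, the 4 control arrays alone, the replicate block, and each of the 8 arrays left out.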

Additional observations from a re-analysis of the deposited data

Results flagged for a closer look

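A probe set without a gene name was flagged because its genotype difference in control leaves differed from that in systemic leaves. It read 9.15 and 9.35 in dTLec control leaves, against 9.62 and 9.59 in wild-type control leaves, and 8.72 and 8.65 in dTLec systemic leaves, against 7.11 and 7.02 in wild-type systemic leaves. The genotype difference was -0.35 in control leaves and 1.62 in systemic leaves, and the first minus the second was -1.97 ± 0.12 (SE, n = 2 arrays per group; limma interaction, adjusted p = 0.0187). It did not pass with the replicate block (adjusted p = 0.0849), and its adjusted p lay between 0.0295 and 0.207 when 1 array was left out.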

How the results depend on the processing

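In control leaves the count past the threshold was 0 in 13 of the 14 alternatives, and 0 to 2 when 1 array was left out. The 2 came without wild-type control replicate 1. The number at an unadjusted p under 0.05 was 2104, fell to 1144 with the replicate block and lay between 1130 (without dTLec control replicate 2) and 2295 when 1 array was left out. Of all 76 named genes, 25 passed in systemic leaves, 7 with the replicate block and 0 to 28 when 1 array was left out. None of them passed the interaction under any alternative. The interaction over all probe sets was called 1 time, 8 times with array median centring (6 higher, 2 lower), 4 times without the dimmest 25% of probe sets, 6 times with an intensity trend, 0 times with the block and 0 to 5 times when 1 array was left out; at an unadjusted p under 0.05 the block fit had 1481. The systemic count of 1257 became 213 with the block and 3 to 1567 when 1 array was left out. Deviations from group means correlated between -0.579 and -0.132 for equal replicate numbers, as removing the replicate difference forces, so the numbers do not show pairing. No genotype difference of a named gene or unnamed probe set in control leaves changed sign under any alternative. Their control groups do not overlap, so leaving out an array could not reverse a sign. The block, the intensity trend, the dim filter and the fit on the 4 control arrays leave these differences unchanged. Only the other scalings could have reversed a sign. The 41 list medians had 574 values under the 14 alternatives, of which 544 stayed within their spread. The block, the intensity trend, the fit on the 4 control arrays and leaving out a systemic array could not move a median. Leaving out a control array changed the sign of several. The plastid-encoded median, for example, then ran from -0.17 to 0.25.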
